A study of Mus musculus with 8 samples.

Results

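The histone genes of the mouse were followed in RNA sequencing of blood-forming stem and progenitor cells. They were taken as every gene whose symbol in the count table begins with Hist1h to Hist4h, with H2af or with H3f3. This gave 78 of 23284 genes. Of these, 68 are clustered (replication-dependent) histone genes, named Hist, and 10 are variant (mostly replication-independent) genes, named H2af or H3f3. By the histone type in the symbol, the clustered genes are 6 for the linker histone H1, 18 for H2A, 19 for H2B, 12 for H3 and 13 for H4. The H2B genes include Hist3h2bb-ps, a pseudogene by its symbol. The cells were bone marrow LSK cells, which lack lineage markers and carry Sca-1 and c-Kit, from Hdc-GFP mice on a C57BL/6 background, in which green fluorescent protein reports on Hdc, the gene of the histamine-making enzyme histidine decarboxylase. Every library came from such reporter mice, and no other allele or treatment is labelled. Cells with high reporter signal (Hdc-GFPhi, 4 libraries) were compared with cells with low signal (Hdc-GFPlo, 4 libraries), with RNA from 2000 cells per library. The sources used here do not give the age or number of the mice or the reporter's construct. Whether replicates are separate animals is not labelled, and the p-values then measure only the spread between these samples, a spread that could be technical.

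Core histones H2A, H2B, H3 and H4 form the nucleosome, and H1 binds the linker DNA between nucleosomes. Clustered genes supply most histone protein during DNA replication. Their mRNAs usually end just past a short stem-loop, bound by the protein SLBP, and carry no poly(A) tail, although many of these genes can also make longer polyadenylated mRNAs. Most variant genes are transcribed through the cell cycle into ordinary polyadenylated mRNA, and their products replace core histones at chosen places in chromatin. The SMARTer kit used here starts cDNA from poly(A) tails. A CPM is the count relative to the library's total, scaled between libraries by the TMM method of edgeR. For a clustered gene, and for the variant H2afx, which also holds the stem-loop, the CPM describes the transcripts such a method captures. Histone mRNA without a tail was not measured separately.

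The stem-loop is the feature that sets the clustered class apart in sequence. A 16-base pattern of this element, made of a stem strand of 6 bases, a loop of 4 and the other stem strand, was searched on the sense strand of GENCODE M21 transcripts. The outer 2 and the inner 2 bases of each stem strand and the first and the third loop base were fixed (G, G, then C, T up to the loop, T for both loop bases, and the complement after it), which leaves 6 positions free. All 78 genes matched these transcripts by symbol. The pattern was found in 46 of 68 clustered genes and in 1 of 10 variants, H2afx, the gene of the DNA damage variant H2A.X. Several clustered genes without a match have short annotated transcripts, such as Hist1h4k (312 bases), Hist1h2bl (381) and Hist1h3h (411). These may end before the element, so a missing match does not show that a gene lacks it. Of 21877 protein-coding genes, 136 (0.622%) held it. The elements below are shown because they give the 3 most frequent forms, and the form in H2afx, and all but H2afx are clustered. Capitals mark the 16-base element and lower case the 7 transcript bases on each side.
Hist1h1c: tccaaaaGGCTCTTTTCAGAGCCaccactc
Hist1h2bg: acccaaaGGCTCTTTTCAGAGCCacccata
Hist1h4d: aaccaaaGGCCCTTTTCAGGGCCactacct
Hist4h4: ccacaaaGGCCCTTTTCAGGGCCcacaaag
Hist1h3e: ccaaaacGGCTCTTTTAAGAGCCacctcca
Hist1h2ab: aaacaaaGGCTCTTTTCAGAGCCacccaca
H2afx: ccacaaaGGCCCTTTTAAGGGCCaccacct
The 47 genes used 9 forms of the element. The form shown for Hist1h1c was in 26 of them, the one for Hist1h4d in 7 and the one for Hist1h3e in 6. The form in H2afx was in no other histone gene.

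Promoters of the clustered genes also had features in common. RefSeq promoter windows (GRCm38.p6, 250 bases before to 50 after the start) were present for 61 clustered genes, in 62 windows, and for 7 variants. There was no entry for Hist1h2ap, Hist1h2bc, Hist2h2be, Hist3h2bb-ps, Hist1h3a, Hist1h3f, Hist2h4, H2afb1, H2afx or H2afy3. Searches on both strands covered the CCAAT box by the letters CCAAT. They also covered the TATA box by the letters TATAAA. The octamer was searched by the letters ATTTGCAT. None of these motifs contains another. The CCAAT box was in 85.5% of clustered windows and 37.4% of all 32817 windows, the TATA box in 56.5% and 13.6%, and the octamer in 22.6% and 1.74%. The CCAAT box was in every H1, H2A, H2B and H3 window and in 3 of 12 H4 windows. The octamer was in 7 of 17 H2A windows, in 7 of 17 H2B windows and in none of the H1, H3 or H4 windows. Many H2A and H2B genes start close together on opposite strands, so their windows overlap and the same site can count in both. The octamer and the TATA box in the windows of Hist1h2ae and Hist1h2bg are such shared sites. The shares therefore count windows and not separate sites. Of the 7 variant windows, 6 held the CCAAT box. A match describes letters and says nothing about which factor binds. The 250 bases before the start are given for an H1 gene, an H2B gene and an H2A gene discussed below and for the most abundant variant, with motif matches in capitals.
Hist1h1c (chr13:23738557-23738806, plus strand): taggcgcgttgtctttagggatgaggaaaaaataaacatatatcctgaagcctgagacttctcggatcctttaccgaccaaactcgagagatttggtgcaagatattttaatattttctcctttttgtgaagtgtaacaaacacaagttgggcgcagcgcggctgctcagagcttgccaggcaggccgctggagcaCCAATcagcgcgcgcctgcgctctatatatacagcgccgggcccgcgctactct
Hist1h2bg (chr13:23571150-23571399, plus strand): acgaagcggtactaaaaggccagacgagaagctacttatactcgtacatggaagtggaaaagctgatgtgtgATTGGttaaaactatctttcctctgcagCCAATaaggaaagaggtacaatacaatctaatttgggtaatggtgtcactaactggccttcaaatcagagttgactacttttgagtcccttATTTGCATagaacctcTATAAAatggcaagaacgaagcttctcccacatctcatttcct
Hist1h2ac (chr13:23683960-23684209, minus strand): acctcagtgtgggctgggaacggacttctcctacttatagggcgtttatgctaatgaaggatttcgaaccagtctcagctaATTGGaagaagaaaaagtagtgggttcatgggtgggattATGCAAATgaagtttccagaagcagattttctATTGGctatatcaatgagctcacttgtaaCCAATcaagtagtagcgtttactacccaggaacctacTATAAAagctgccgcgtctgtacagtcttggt
H2afy (chr13:56135551-56135800, minus strand): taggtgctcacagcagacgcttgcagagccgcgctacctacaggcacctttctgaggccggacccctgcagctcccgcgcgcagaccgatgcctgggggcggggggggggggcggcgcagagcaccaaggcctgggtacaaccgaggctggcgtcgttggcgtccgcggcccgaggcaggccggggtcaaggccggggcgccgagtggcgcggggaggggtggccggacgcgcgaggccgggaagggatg
In these windows, Hist1h1c held the CCAAT box at position -54 from the start. Hist1h2bg held the TATA box at -43, the octamer at -59 and the CCAAT box, on 1 strand or the other, at -178 and -150. Hist1h2ac held the TATA box at -32, the octamer at -130 and the CCAAT box at -169, -98 and -69. H2afy held none of the motifs.

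The libraries held 16726179 to 23051277 counts each. The genes that define the sort were present in both fractions, with Kit (c-Kit) at 1460 and 1195 CPM and Ly6a (Sca-1) at 124.7 and 119.3 CPM in Hdc-GFPhi and Hdc-GFPlo. The Hdc transcript itself was at means of 12 and 12.1 CPM. Genes were tested with edgeR's quasi-likelihood test with Benjamini-Hochberg adjustment over all 13300 genes that passed a filter on low counts, and a gene is said to have risen or fallen only where its adjusted p was under 0.05. Log2 fold changes are Hdc-GFPhi minus Hdc-GFPlo. Among the histone genes, 47 passed the filter, 38 clustered and 9 variant. Of the 31 that did not, 8 had no count in any library and 23 had at most 22 counts in a library.

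Few genes of any kind differed detectably between the fractions with 4 libraries each, and histone genes were no exception. A single histone gene, Hist1h2bc, which encodes an H2B, fell in Hdc-GFPhi, and none rose. This is 1 of 38 tested clustered genes and 0 of 9 variants, where 0.947% of all tested genes were called and 0.707% were called lower. At an unadjusted p under 0.05 stood 1 of 38 clustered genes (2.63%) and 3 of 9 variants, all 3 lower, against 10.9% of all tested genes. The median log2 fold change was 0.03 for clustered genes (24 above 0, 14 below) and -0.06 for variants (4 above, 5 below), beside 0 for all tested genes. Without Hdc-GFPlo replicate 3 the variant median was 0.15. The groups did not overlap for 2 of 38 clustered genes, Hist1h2bc and Hist1h2ag, and for 1 of 9 variants, H2afy, against 6.92% of all tested genes.

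**Figure D1:**
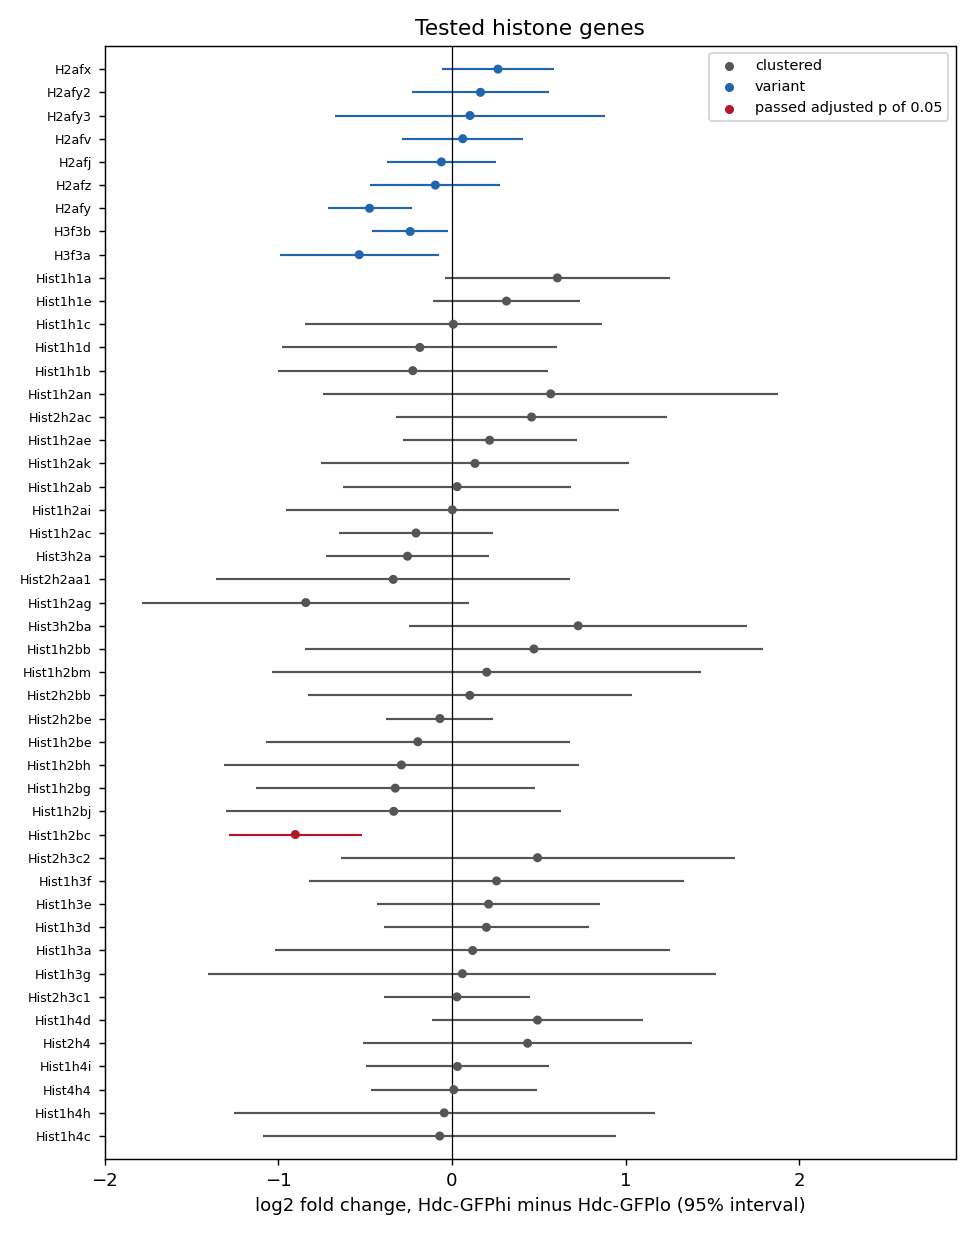
Log2 fold change (x axis, Hdc-GFPhi minus Hdc-GFPlo) with its 95% interval from edgeR for the 47 tested histone genes (y axis), variants in blue, clustered genes in grey and the called gene in red. Hist1h2bc is the 1 red point, at -0.90, and among the variants the intervals of H2afy, H3f3a and H3f3b lie below 0.

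The variants carried nearly all histone reads. Their summed level was 4087 ± 335 CPM in Hdc-GFPhi (SD, n = 4, range 3726 to 4395) and 5179 ± 618 CPM in Hdc-GFPlo (range 4553 to 5959), and the groups did not overlap. The clustered genes summed to 294.8 ± 30.8 CPM (258.6 to 324.9) and 307.1 ± 45.9 CPM (240.9 to 344.4), with overlap. Clustered genes therefore made up 6.95%, 6.74%, 6.49% and 6.69% of histone counts in Hdc-GFPhi replicates 1 to 4 and 6.04%, 6.08%, 5.24% and 5.03% in Hdc-GFPlo. All Hdc-GFPhi shares were above all the Hdc-GFPlo shares. With H2afy left out the shares were 12.3% to 14.8% and 11.8% to 14.1%, which overlap, and the other variants summed to 1666 to 2000 CPM and 1794 to 2377 CPM. In RNA of sorted cells, fewer cells of a kind and less RNA per cell cannot be told apart. These sums are descriptions and were not tested.

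**Figure D2:**
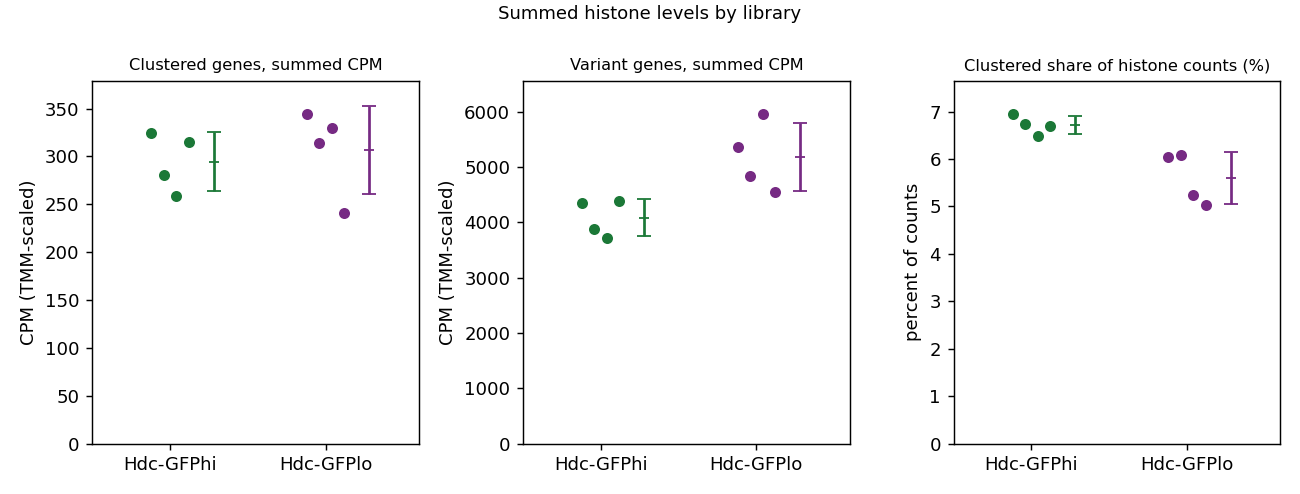
Summed CPM of clustered genes (left), summed CPM of variant genes (middle) and the clustered share of histone counts in percent (right), 1 point per library with mean and SD beside them. The fractions overlap in the left panel and are separate in the middle panel (3726 to 4395 against 4553 to 5959 CPM) and the right panel.

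Among the variants, H2afy encodes macroH2A1, an H2A with a large extra domain that is often found on silent chromatin. Its level was 2483, 2215, 1885 and 2395 CPM in Hdc-GFPhi replicates 1 to 4 and 3193, 2937, 3582 and 2759 CPM in Hdc-GFPlo. All the Hdc-GFPhi libraries were below all the Hdc-GFPlo libraries. The log2 fold change was -0.47 ± 0.11 (SE, 95% interval -0.72 to -0.23) with an adjusted p of 0.0748 in edgeR, which missed the threshold. DESeq2 gave an adjusted p of 0.00861 and limma voom 0.0333, and with each library left out in turn the edgeR value was 0.0778 to 0.246. H2afy made up 50.6% to 57.1% of variant counts in Hdc-GFPhi and 59.6% to 60.6% in Hdc-GFPlo. Its relatives did not pass the test. H2afy2, the gene of macroH2A2, averaged 20.3 ± 1.62 and 18.2 ± 4.35 CPM (log2 fold change 0.16, adjusted p = 0.833), and H2afy3 averaged 1.59 and 1.48 CPM (0.10, adjusted p = 0.954). A test of H2afy against its relatives was not made.

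H3f3a and H3f3b encode the same protein, the replacement histone H3.3. H3f3b was at 1197, 1110, 1209 and 1255 CPM in Hdc-GFPhi and 1556, 1391, 1514 and 1175 CPM in Hdc-GFPlo. The Hdc-GFPlo libraries were higher except replicate 4, which lay within the Hdc-GFPhi range. The log2 fold change was -0.24 ± 0.10 (SE, unadjusted p = 0.0337, adjusted p = 0.393). H3f3a was at 58.8, 63.9, 80 and 92.4 CPM and at 97.4, 76.9, 160 and 93.2 CPM. Here Hdc-GFPlo replicate 3 stood highest and the groups overlapped through replicate 2. The log2 fold change was -0.53 ± 0.21 (SE, unadjusted p = 0.0258, adjusted p = 0.358), and -0.26 without Hdc-GFPlo replicate 3.

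The H2A.Z genes H2afz and H2afv, whose products mark promoters, did not pass the test. H2afz was at 107, 112, 128 and 123 CPM in Hdc-GFPhi and 119, 97.3, 182 and 104 CPM in Hdc-GFPlo (log2 fold change -0.10, 95% interval -0.47 to 0.28, adjusted p = 0.910). H2afv was at 176, 140, 147 and 199 CPM and at 144, 127, 212 and 151 CPM (0.06, interval -0.29 to 0.41, adjusted p = 0.938). In both genes Hdc-GFPlo replicate 3 was the highest library and the fractions overlapped. H2afx was at 225, 156, 185 and 222 CPM and at 168, 125, 189 and 173 CPM (0.27, interval -0.05 to 0.59, adjusted p = 0.580). H2afj, the gene of H2A.J, averaged 74.5 ± 12 and 77.7 ± 12.3 CPM (-0.06, adjusted p = 0.935). H2afb1, the tenth variant, had no count, which allows up to 0.0341 CPM over the Hdc-GFPhi libraries and 0.0385 over the Hdc-GFPlo libraries at 3 counts, for counting error only.

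Levels of different genes were set side by side per kilobase of annotated exons. H3f3b stood at 437 CPM per kb and H2afy at 394, followed by H2afx at 130, H2afv at 99.2, H2afz at 68.5, H2afj at 41.6, H3f3a at 25.8, H2afy2 at 8.85 and H2afy3 at 1.38. The order of neighbours depends on the length used. Per kilobase of the longest annotated transcript, H2afy stood at 667 CPM per kb and H3f3b at 518, and H2afz at 114 stood above H2afv at 99.2. Of the 10 clustered genes with the most reads, the highest per kilobase of annotated exons was Hist1h2ae at 37 CPM per kb, followed by Hist1h2bg at 31.3, Hist1h2bc at 29.2, Hist1h4d at 23.9 and Hist1h1c at 23.6. The others were Hist1h1e at 12.1, Hist3h2a at 11.1, Hist1h2ac at 9.18, Hist4h4 at 6.28 and Hist2h2be at 5.12 CPM per kb. All 10 stood below the 6 highest variants on this scale, and H3f3a and H2afy2 stood within their range and H2afy3 below it.

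**Figure D3:**
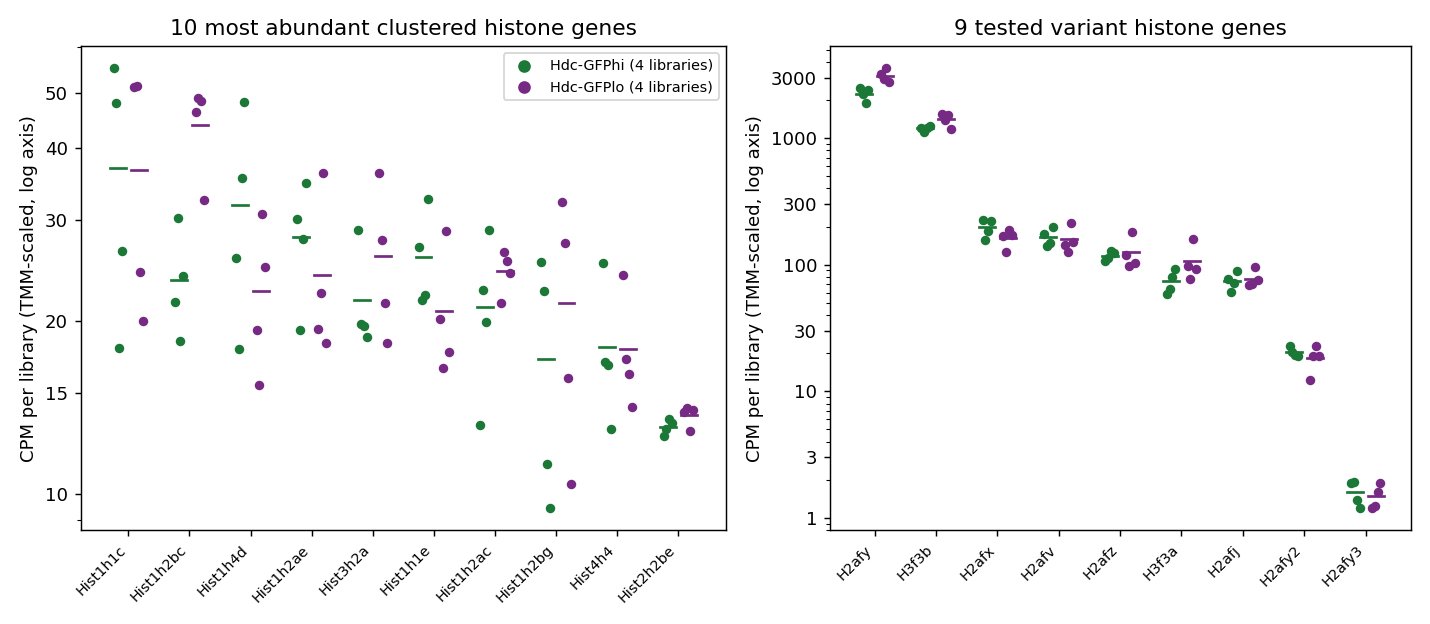
CPM per library (log y axis) for the 10 most abundant clustered genes (left) and the 9 tested variants (right), with Hdc-GFPhi in green, Hdc-GFPlo in purple and bars at the means. The fractions are separate for Hist1h2bc and H2afy and overlap for the other genes shown.

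Clustered H2B genes included the gene that passed the test. Hist1h2bc was at 21.6, 30.2, 18.5 and 24.0 CPM in Hdc-GFPhi and at 46.3, 48.9, 48.3 and 32.5 CPM in Hdc-GFPlo. Every Hdc-GFPhi library was below every Hdc-GFPlo library, and Hdc-GFPlo replicate 4 was nearest to the other group. Hist1h2bc was 1.87-fold lower in Hdc-GFPhi (log2 fold change -0.90 ± 0.18, SE, 95% interval -1.28 to -0.52, adjusted p = 0.0311 in edgeR), at 23.6 ± 4.96 against 44.0 ± 7.76 CPM (SD, n = 4 each). The call was near the threshold. Leaving out replicate 2 of Hdc-GFPhi or replicate 4 of Hdc-GFPlo kept it, and it was lost without any of the other 6, with adjusted p of 0.0605 to 0.113 and log2 fold changes of -0.91 to -0.80. DESeq2 (adjusted p = 0.000261) and limma voom (0.0311) also called it.

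Hist1h2bc and its neighbour Hist1h2ac, an H2A gene, start 251 bases apart on opposite strands in GENCODE M21. Hist1h2ac was at 13.2, 22.7, 19.9 and 28.8 CPM in Hdc-GFPhi and 21.5, 26.4, 25.5 and 24.3 CPM in Hdc-GFPlo, with overlap (log2 fold change -0.21 ± 0.20, SE, adjusted p = 0.809). The difference between the neighbours was not tested. Of 50-base stretches in Hist1h2bc transcripts, 30.6% also occur in another gene, chiefly Hist1h2bg, so some of its reads may have had more than 1 place to map, and the sources used here do not say how such reads were counted. Without Hist1h2bc, the clustered genes summed to 271 ± 30.7 and 263 ± 39.1 CPM in the high and low fractions.

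Markers of other blood cells moved with the fractions as well. Among all tested genes, 0.947% were called by edgeR. Summed levels were 103 to 207 CPM in Hdc-GFPhi against 344 to 679 CPM in Hdc-GFPlo for 10 B cell genes, of which 5 fell. They were 555 to 583 against 699 to 736 CPM for monocyte genes (3 of 9 fell) and 95.3 to 129 against 151 to 173 CPM for T and NK cell genes (1 of 3 tested fell). The last sum was mostly Lck, a kinase of T cells, the gene that fell (91.8 ± 9.39 against 138 ± 8.07 CPM, adjusted p = 0.0180). The CD3 genes that define T cells were too low to test, with Cd3d at means of 0.291 and 0.166 CPM, Cd3e at 0 and 0.079 and Cd3g at 0.0583 and 0.181, and Cd8a had no count. Megakaryocyte genes went the other way, at 886 to 966 against 537 to 677 CPM (1 of 7 tested rose). No gene was called by edgeR in the lists for neutrophils (1832 to 2570 against 2267 to 3148 CPM), plasma cells (246 to 301 against 282 to 493 CPM), erythroid cells (105 to 389 against 122 to 352 CPM) or stroma (158 to 212 against 174 to 219 CPM), and these sums overlapped. All 9 tested neutrophil genes had log2 fold changes below 0 (median -0.46), 2 of them with an unadjusted p under 0.05 in edgeR. Erythroid genes had 1 above 0 and 5 below, and stromal genes 3 above and 2 below. The plasma cell sum was mostly Xbp1, at 245 and 251 CPM. In that list Igj, the immunoglobulin J chain, was at 0.401 to 0.607 CPM in the Hdc-GFPhi libraries and at 0.796, 95.3, 183 and 154 CPM in the Hdc-GFPlo libraries, without overlap (adjusted p = 0.119 in edgeR), 4 of 6 genes had an unadjusted p under 0.05, all lower, and DESeq2 called Igj and Sdc1. The part of these cell types in the values of Hist1h2bc and H2afy was not tested.

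The other H2B genes did not pass the test. Hist1h2bg was at 25.4, 22.6, 11.3 and 9.45 CPM in Hdc-GFPhi and 32.3, 27.4, 15.9 and 10.4 CPM in Hdc-GFPlo. Within each fraction replicates 1 and 2 were high and replicates 3 and 4 were low, and the fractions overlapped (log2 fold change -0.33 ± 0.37, SE, adjusted p = 0.838). Hist2h2be was the steadiest abundant clustered gene, at 12.6, 13, 13.5 and 13.3 CPM and at 13.9, 14.1, 12.9 and 14 CPM. Its coefficient of variation was 3.08% and 4.14% in the fractions, beside 46.5% and 47.0% for Hist1h2bg, and its log2 fold change was -0.07 (95% interval -0.38 to 0.24, adjusted p = 0.924). All H2B genes summed to 63.2 ± 10 CPM (52.4 to 72.7) and 88.8 ± 17.5 CPM (63.7 to 103), with overlap, and the median over 10 tested was -0.13.

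Among clustered H1 genes, Hist1h1c, the gene of H1.2, had the highest mean of all clustered genes. It was at 55.2, 47.9, 18 and 26.5 CPM in Hdc-GFPhi and 51.1, 51.3, 24.4 and 20 CPM in Hdc-GFPlo. Replicates 1 and 2 were high and replicates 3 and 4 low in both fractions, and the fractions covered the same range. The means were 36.9 ± 17.5 and 36.7 ± 16.8 CPM (SD), with a log2 fold change of 0.01 (95% interval -0.85 to 0.86, adjusted p = 0.997). An interval this wide would include a change of the size seen for H2afy in either direction. Hist1h1e, which encodes H1.4, averaged 25.9 ± 5.04 and 20.8 ± 5.47 CPM (0.31 ± 0.20, SE, adjusted p = 0.642), and an annotated H2B gene, Hist1h2be, overlaps its exons. Hist1h1a, which encodes H1.1, was at 3.34, 3.73, 3.43 and 4.86 CPM and at 1.99, 2.32, 3.71 and 2.08 CPM (0.61 ± 0.30, SE, adjusted p = 0.509). The fractions overlapped for Hist1h1a through Hdc-GFPlo replicate 3.

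Of 10 tested H2A genes, none was called and the median was 0.02. Hist1h2ae was at 30.1, 19.3, 27.8 and 34.8 CPM and at 19.4, 22.4, 36.3 and 18.3 CPM, with overlap (log2 fold change 0.22 ± 0.23, SE, adjusted p = 0.827). Hist3h2a was at 28.8, 19.8, 19.6 and 18.8 CPM and at 36.3, 27.7, 21.5 and 18.3 CPM (-0.26 ± 0.22, adjusted p = 0.769). Replicate 1 was highest for Hist3h2a in both fractions. Hist1h2ag was low, at 0.669, 0.42, 0.445 and 0.49 CPM against 0.708, 0.713, 1.22 and 1.01 CPM. Its groups did not overlap, but its log2 fold change of -0.84 ± 0.43 (SE) rests on a mean of 14.4 counts per library and did not pass the test (adjusted p = 0.538).

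The 7 tested H3 genes all had log2 fold changes above 0, from 0.03 to 0.49 with a median of 0.20, and adjusted p from 0.827 to 0.988. Their summed level was 16.5 ± 0.70 and 15 ± 1.65 CPM, with the fractions at 15.7 to 17.2 and 12.7 to 16.2 CPM. The 6 tested H4 genes had a median of 0.02. Hist1h4d was at 25.8, 17.9, 35.5 and 48.1 CPM and at 19.3, 15.5, 30.7 and 24.9 CPM (0.49 ± 0.28, SE, 95% interval -0.11 to 1.1, adjusted p = 0.593), so the fractions overlapped. Hist4h4, which lies outside the main clusters, averaged 18.1 ± 5.19 and 17.9 ± 4.29 CPM (0.01, adjusted p = 0.995). By cluster, the medians were 0.03 over 28 Hist1 genes, 0.10 over 7 Hist2 genes and 0.24 over 2 Hist3 genes.

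For 3 clustered genes, a share close to that of all tested genes, the replicate number in the labels separated the libraries more than the fraction did. Hist1h1c averaged 51.6 CPM in replicates 1 and 2 and 22.3 in replicates 3 and 4 of Hdc-GFPhi, and 51.2 and 22.2 CPM in Hdc-GFPlo, a 2.33-fold ratio over both fractions. Hist1h2bg averaged 24.0 and 10.4 CPM, and 29.9 and 13.1 CPM (2.31-fold), and Hist4h4 differed 1.37-fold. In these 3 of 38 genes (7.89%) all libraries numbered 1 or 2 were above all those numbered 3 or 4. The same separation, in either direction, was seen for 7.86% of all tested genes and for 0 of 9 variants. Hist1h1c and Hist1h2bg differed by more than 1 on the log2 scale (5.26% of clustered genes, 2.27% of all). Hist1h4d went the other way, 0.81 higher on the log2 scale in replicates 3 and 4, with overlap. No label calls these numbers a batch, the split was chosen after the data were seen, and its source was not tested. With the split as a covariate, Hist1h2bc had an adjusted p of 0.00863 and H2afy 0.0467. Replicates 1 and 2 alone gave -0.88 for Hist1h2bc (adjusted p = 0.0929) and replicates 3 and 4 alone gave -0.93 (0.400).

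**Figure D4:**
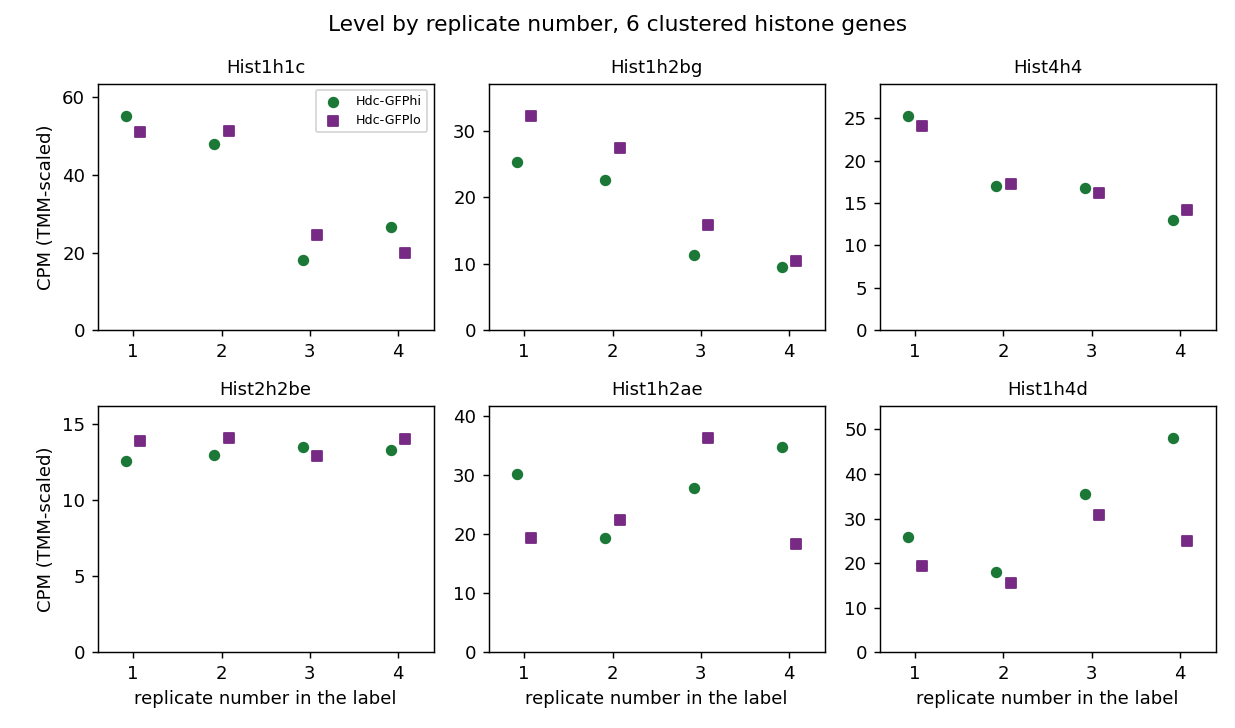
CPM (y axis, from 0) against the replicate number in the labels (x axis) for 6 clustered genes, with Hdc-GFPhi as green circles and Hdc-GFPlo as purple squares. In Hist1h1c, Hist1h2bg and Hist4h4 the libraries numbered 1 and 2 lie above those numbered 3 and 4 in both fractions, while Hist2h2be stays between 12.6 and 14.1 CPM.

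Hist1h2bg and Hist1h2ae also form a divergent pair, with starts 176 bases apart. There were 13 such H2A and H2B pairs, with 173 to 306 bases between starts, and in 4 of them both genes passed the filter. The closest pair, at 173 bases, is Hist3h2a with the pseudogene Hist3h2bb-ps. Hist1h2ae averaged 24.7 CPM in Hdc-GFPhi replicates 1 and 2 and 31.3 in replicates 3 and 4, and 20.9 and 27.3 CPM in Hdc-GFPlo, where Hist1h2bg was lower in replicates 3 and 4. In the pair Hist2h2ac and Hist2h2be (239 bases), the log2 fold changes were 0.46 and -0.07. In the pair Hist1h2ag and Hist1h2bj (270 bases) they were -0.84 and -0.34.

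Clustered genes annotated well past the stem-loop had the higher levels. Of the 46 clustered genes with the element, 23 have at least 100 annotated bases past it, a limit chosen after the data were seen. These had a median of 2.94 CPM, 8 were above 10 CPM, and 20 passed the filter. The 23 with a shorter stretch had a median of 0.377 CPM, none was above 10 CPM, and 10 passed the filter. Per kilobase the medians were 2.23 and 0.659 CPM per kb. The 10 clustered genes with the highest mean CPM (13.4 to 36.8 CPM) held 81.3% of the summed clustered level. Of these 10 genes, 8 had the element with at least 100 bases after it, among them Hist1h2ae with 151, Hist1h1c with 840 and Hist4h4 with 2445. The other 2, Hist1h2bc and Hist2h2be, had no match to the pattern in their annotated transcripts. Hist1h2ab, whose transcript is annotated to end 11 bases after the element shown above, had 4.38 CPM, the most among those with a short stretch. Annotated ends are not the ends of the molecules sequenced here, which were not measured. The groups also differed in how much sequence they share with other genes. The median share of 50-base stretches found in another gene was 24.6% for genes with the longer stretch (0 to 100%) and 60.4% for those with the shorter one (39.5% to 100%), and the 3 genes with no count, Hist1h2ao, Hist1h2ap and Hist2h2aa2, were all in the second group. The part of shared sequence in these levels was not tested. A transcript with a longer annotated end also offers more sequence to which reads can be assigned.

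**Figure D5:**
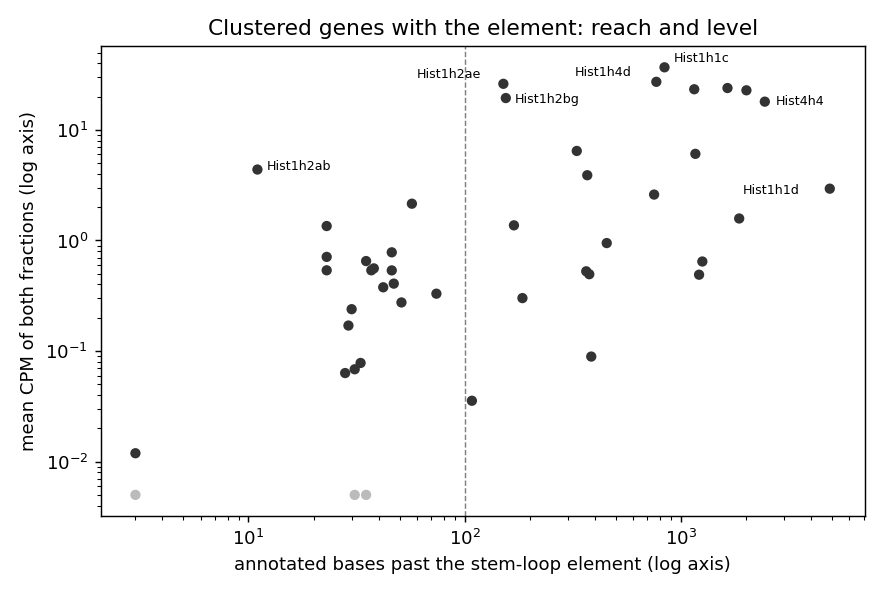
Mean CPM over both fractions (log y axis) against the longest annotated stretch of transcript past the stem-loop element (log x axis, bases) for the 46 clustered genes that hold the element. The dashed line marks 100 bases. Grey points are genes with no count, drawn at the bottom of the plot, and every gene above 10 CPM lies to the right of the line.

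Genes that make, process and deposit histones were given by lists. Of all tested genes, edgeR called 0.947%, and 10.9% had an unadjusted p under 0.05. At such shares, the absence of a call in a list this short says little about its genes. Of 24 genes for histone gene transcription and mRNA 3′ processing, none was called by edgeR, DESeq2 or limma voom and 1 had an unadjusted p under 0.05, with 8 above 0 and 16 below (median -0.04). That gene was Ccne1 (cyclin E1, whose kinase activates histone transcription), at 15.7 ± 1.41 and 21.8 ± 4.39 CPM (log2 fold change -0.47 ± 0.17, SE, adjusted p = 0.283). Slbp, which binds the stem-loop, averaged 213 ± 35.7 and 244 ± 65.1 CPM (-0.20, adjusted p = 0.780), and Npat, the activator of histone loci, 73.4 ± 16.8 and 84.9 ± 6.94 CPM (-0.21, adjusted p = 0.701). Lsm11, of the U7 particle that cuts histone mRNA, averaged 40.9 and 34.3 CPM (0.25, adjusted p = 0.541), and Cstf3, a cleavage factor, 59.1 and 70.0 CPM (-0.25, adjusted p = 0.544). Slbp and Npat were chosen after their values were seen.

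Of 30 tested histone chaperones and related genes, none was called by edgeR (0.947% of all tested genes), DESeq2 or limma voom. None had an unadjusted p under 0.05 (10.9% of all tested genes), and the median was -0.01. The smallest p-values belonged to Chaf1b, of the assembly factor CAF-1 (151 ± 8.63 and 133 ± 12 CPM, log2 fold change 0.18, adjusted p = 0.555), to Npm1, a nucleolar chaperone (443 ± 72.3 and 546 ± 131 CPM, -0.30, adjusted p = 0.555), and to Ubn2, of the H3.3 chaperone complex HIRA (102 ± 8.47 and 115 ± 4.47 CPM, -0.17, adjusted p = 0.580).

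Of 25 S phase genes, none was called by any of the 3 tools, where edgeR called 0.947% of all tested genes. An unadjusted p under 0.05 was seen for 1 of them (4%, against 10.9% of all tested genes), and the median was 0.02. The S phase genes summed to 5634 to 7146 CPM in Hdc-GFPhi and 5670 to 6832 CPM in Hdc-GFPlo. Rrm2, a subunit of ribonucleotide reductase, was at 213 ± 28.2 and 288 ± 58.1 CPM (log2 fold change -0.43 ± 0.15, SE, adjusted p = 0.254). Dnmt1, the maintenance DNA methyltransferase, had 0.22 (adjusted p = 0.665) and the origin licensing factor Cdc6 had 0.16 (adjusted p = 0.705).

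Among other histone and chromatin genes outside the symbol rule, 5 were tested and none was called by edgeR (0.947% of all tested genes). H1fx, which encodes the linker histone H1X, averaged 16.8 ± 2.20 and 11 ± 0.86 CPM, with the Hdc-GFPhi libraries all above those of Hdc-GFPlo (log2 fold change 0.60 ± 0.16, SE, adjusted p = 0.119 in edgeR). DESeq2 gave an adjusted p of 0.0132 for H1fx. H1f0, the linker histone of differentiated cells, had 0.23 (adjusted p = 0.5) and the nucleosome-binding Hmgn2 had -0.24 (adjusted p = 0.765).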

How the data were processed

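RNA from 2000 sorted cells per library was reverse transcribed and amplified by SMARTer Ultra Low Input chemistry, and Nextera XT gave the libraries, per the labels' protocols. The authors deposited raw read counts per gene symbol as whole numbers. The tools, per the submitters' processing notes, were TopHat2 (given as 2.04), Bowtie2, HTSeq 0.6.1 and bcl2fastq 1.8.4, and the build was mm9. The sources used here do not give the annotation, the strandedness or the handling of reads that map to several places. By GENCODE M21, 34 of 68 clustered genes share over 50% of their 50-base stretches with another gene, and exons of 24 clustered and 6 variant genes overlap another gene, so values of such genes are uncertain. The sequences come from GRCm38 annotation, and no coordinates of the counts' build were used. Groups follow the titles. Hdc-GFPhi replicate 4 carries a cell type label of GFP+ and was kept in its titled group.

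Counts were filtered with filterByExpr, TMM-scaled and tested with edgeR 4.0.16 (glmQLFit, robust, then glmQLFTest, no covariate, R 4.3.3) over 13300 genes, adjusted by Benjamini-Hochberg, at 0.05. Alternatives were other scaling factors and filters, DESeq2 1.42.0, limma 3.58.1 voom, no robust estimation, a replicate block and leaving out each library. Alternatives added after seeing the data were a covariate for replicates 1 and 2 against 3 and 4, each side alone, leaving out Hdc-GFPhi replicate 4 with Hdc-GFPlo replicate 3, and leaving out H2afy. Libraries of a fraction differed by a chi-square per degree of freedom of at least 13.3, so none is the same library read again. Separate preparations of the same sample could also differ, so this does not show that replicates are separate animals. Hdc-GFPlo replicate 3 stood furthest from the rest of its fraction, at 49.8 to 55.4. The other Hdc-GFPlo pairs were at 13.3 to 18.2 and the Hdc-GFPhi pairs at 18.5 to 38.2. On simulated data for this comparison (13181 genes), 20% of genes with a log2 change of 0.5 were recovered, 75.5% at 1 and 100% at 2. Simulated counts were drawn at the spread typical of a gene's level. Noisier genes, such as Hist1h1c and Hist1h2bg, may be recovered less often than this, and steadier ones, such as Hist2h2be, more often. Reads carry no molecular identifiers.

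The members and lists were chosen with earlier results of these data known. The genes named are Hist1h2bc and Hist1h1c, any called member, the 10 clustered genes of highest mean CPM, the 4 of smallest p, all tested variants, and from the 4 lists of histone-related and S phase genes up to 3 of smallest p. Other genes named were chosen after their values were seen.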

Additional observations from a re-analysis of the deposited data

Results flagged for a closer look

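Dixon's criterion at 95% was applied to the 4 libraries of each fraction for the named genes and the summed levels, 82 groups in all, of which chance marks about 5%. It marked 4. Hist1h2bc in Hdc-GFPlo was at 32.5 CPM in replicate 4 where the others were at 46.3 to 48.9 CPM, and without that library its log2 fold change was -1.02 (adjusted p = 0.0175). Hist3h2a in Hdc-GFPhi was at 28.8 CPM in replicate 1 where the others were at 18.8 to 19.8 CPM. Ubn2 in Hdc-GFPlo was at 122 CPM in replicate 3 where the others were at 113 to 114 CPM. Dnmt1 in Hdc-GFPhi was at 496 CPM in replicate 2 where the others were at 592 to 605 CPM.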

How the results depend on the processing

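Over 691 comparisons of the 33 named genes with an alternative, 678 kept their side of the threshold, none with a called value changed sign, 9 lost a call (all Hist1h2bc) and 4 gained one (H2afy in 3, H1fx in 1). Clustered genes called lower numbered 1, and 0 to 1 with a library left out, 0 with replicates 1 and 2 alone, 0 with replicates 3 and 4 alone, and 0 with both Hdc-GFPhi replicate 4 and replicate 3 of Hdc-GFPlo left out. Variants called lower numbered 0, and 1 (H2afy) with DESeq2, 1 with voom and 1 with the covariate. The variant median log2 fold change of -0.06 was -0.12 to 0.15 with a library left out and 0.12 with both libraries left out. Over all genes, 94 lower and 32 higher calls became 241 and 163 with DESeq2, 179 and 99 with voom, 191 and 84 with the covariate, 43 and 8 with replicates 1 and 2 alone, and 21 and 0 with replicates 3 and 4 alone. With a library left out they were 48 to 107 lower and 8 to 44 higher, and the cause of these shifts was not tested.

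With the replicate block, higher calls over all genes numbered 84 and Hist1h2bc had an adjusted p of 0.0224. Same-numbered libraries correlated in their deviations at 0.257, 0.347, 0.0755 and 0.1, and differently numbered ones at -0.262 to 0.322. Within numbers 1 and 2, and within numbers 3 and 4, every correlation between the fractions was positive (0.062 to 0.347). Every correlation of a number 1 or 2 with a number 3 or 4 was negative (-0.262 to -0.0625). Hdc-GFPhi replicates 1 and 2 correlated best with their own number. The other 2 of the 4 did not: replicate 3 correlated best with Hdc-GFPlo replicate 4 (0.212) and replicate 4 with Hdc-GFPlo replicate 3 (0.322). The main test therefore did not pair samples by number. Whether the fractions share structure by replicate number was not tested.

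Precision was limited at low counts. Of 47 tested histone genes, 14 had a mean under 20 counts per library.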
